A study of Homo sapiens with 4 samples.

Results

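The effect of β-TrCP knockdown under androgen ablation was examined by subtracting, gene by gene, the array of control LAPC4 cells in charcoal stripped serum (GFP CSS) from the array of β-TrCP shRNA cells in the same serum (cicb CSS). These are 2 of the 4 arrays of the experiment. The other 2, GFP FCS and cicb FCS, give the same knockdown in full serum and share no array with the CSS pair. LAPC4 cells are a human prostate cancer line whose growth responds to androgen. All 4 cultures were transduced with a lentiviral vector and treated for 72 hours. FCS medium held 10% fetal calf serum with 100 pM methyltrienolone, a synthetic androgen, and CSS medium held 10% charcoal stripped serum, which is depleted of steroids. The shRNA was directed at both β-TrCP genes, BTRC (β-TrCP1) and FBXW11 (β-TrCP2). The labels give GFP as the control. The study's methods name the vector alone, which carries a tet repressor fused to eGFP, while its results section describes the same doxycycline-inducible shRNA cells without doxycycline as the control. A difference between cicb and GFP can therefore hold an effect of doxycycline or of another vector, which cannot be told apart from that of the knockdown. Of 9193 genes with a signal of at least 20 on an array, 3794 reached 100 (6.64 on the log2 scale) on GFP CSS or cicb CSS and are called bright here.

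β-TrCP is the subunit through which an SCF ubiquitin ligase binds its substrates. The ligase is a complex of SKP1, a cullin, a RING protein and an F-box protein. It binds proteins that carry a phosphorylated degron and thereby marks β-catenin, the NF-κB inhibitor IκB, the mitotic kinase WEE1, the CDC25A phosphatase and others for the proteasome. Since this control acts on proteins, the mRNA of a substrate need not follow it.

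Each condition had 1 array, so that no difference between cicb CSS and GFP CSS has a replicate and none was tested by itself. A 2-fold difference was used as a rule of size. The local spread, a robust SD of the log2 changes of the 1000 probe sets nearest in signal, is given as a description of how far 2 arrays differ at that signal. Only the mean effect of the shRNA over both sera was tested, with limma in an additive model. The cicb CSS array stood apart before normalization: the interquartile range of its log2 values was 2.07 against 2.68 to 2.74 on the other 3, 35.0% of its probe sets were under a signal of 20 against 41.7% to 42.0%, and its Pearson correlation with the other arrays was 0.946 to 0.947, where the others reached 0.990 to 0.992 among themselves. The probe set at the 3′ end of the 28S ribosomal RNA read 6.69 there and 4.30 to 4.36 elsewhere, while the ACTB 3′ minus 5′ difference was 0.443 on cicb CSS and 1.03 on GFP CSS. The part of these array differences in the results below was not tested.

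FBXW11 was the most reduced bright gene. Its normalized log2 signal was 8.19 on GFP CSS and 4.68 on cicb CSS, an 11.4-fold lower level (-3.51 on the log2 scale, local spread 0.65). In FCS it was 8.02 without and 5.02 with the shRNA, a change of -3.00. Both knockdown arrays thus lay below both control arrays. Its second, dimmer probe set differed by -0.95 in CSS and -1.34 in FCS. BTRC, the other target, was dim: it read 4.64 on GFP CSS and 4.50 on GFP FCS and was at the floor of 4.32 on both shRNA arrays, which gives at least 1.25-fold lower in CSS. Of the 10 bright genes of the SCF and cullin core, FBXW11 was the only one called in the test over both sera. SKP1, CUL1 and RBX1, the scaffold partners of the F-box protein, differed in CSS by 0.09, 0.14 and 0.13 on the log2 scale, each less than its local spread, and RNF7, an alternative RING subunit, by -0.87 (local spread 0.59). The median change of the list was 0.03, and -0.41 on the values as deposited.

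In CSS, 195 bright genes were at least 2-fold higher with the shRNA, which is 5.14% of the 3794, and 155 were at least 2-fold lower, or 4.09%. In FCS the same genes gave 38 higher, 1% of them, and 28 lower, 0.738%. The robust SD of the log2 changes was 0.427 in CSS and 0.291 in FCS. Counts in CSS depended on the scale: on the values as deposited, where the median change of all bright genes was -0.47, 38 genes were higher and 603 lower (5.93% of the called genes higher, against 55.7% after quantile normalization), and with only the medians of the arrays equalized 99 were higher and 254 lower (28.0% higher). They also depended on which genes counted as bright, since a gene that passed only through the cicb CSS array had to be higher there. With the FCS arrays, which the comparison does not use, setting the minimum of 100, 35 genes were higher and 126 lower. With the minimum on both CSS arrays, 29 were higher and 22 lower.

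The 2 knockdown comparisons were set side by side because they share no array. Across the 3794 bright genes the change in CSS and the change in FCS had a Pearson correlation of 0.38 and a Spearman correlation of 0.37, given as a description across genes, which are not independent replicates. At least 2-fold higher in both sera were 16 genes, 8.21% of those higher in CSS and 42.1% of those higher in FCS. This overlap depended on which genes counted as bright. Of the 16 genes, 9 remained with the signal minimum set on the mean of the FCS arrays. With the minimum on both CSS arrays 6 remained, since the rest were under it on GFP CSS and were bright through cicb CSS. At least 2-fold lower in both were 12 genes, 7.74% and 42.9% of the respective lists. No bright gene was 2-fold higher in 1 serum and 2-fold lower in the other. Of the 155 genes lower in CSS, 135 were also negative in FCS, where 51.1% of all bright genes were negative, and their median FCS change was -0.41. Of the 195 genes higher in CSS, 98 were positive in FCS, where 48.6% of all bright genes were.

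**Figure D1:**
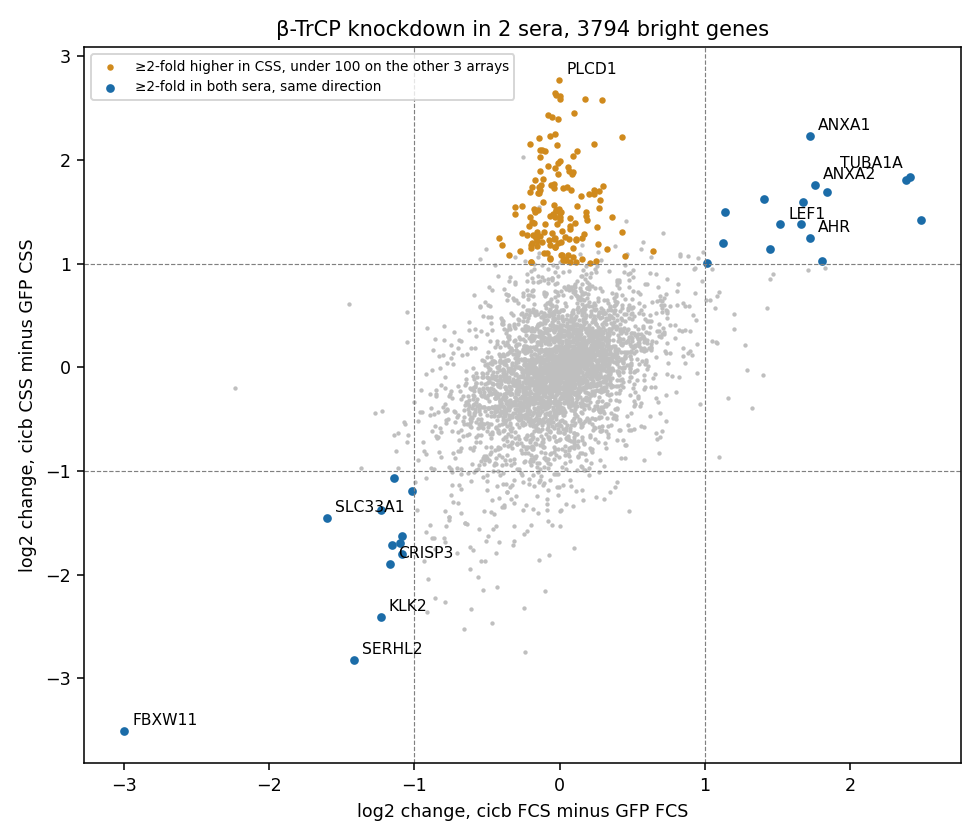
Log2 change with β-TrCP shRNA in FCS (x axis) and in CSS (y axis) of the 3794 bright genes, each point a gene measured on 1 array per condition. Blue points are the 28 genes at least 2-fold different the same way in both sera, orange points the 151 genes at least 2-fold higher in CSS that were under a signal of 100 on the other 3 arrays and lie near 0 on the x axis, and dashed lines mark 2-fold.

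The genes higher in both sera included annexins and an annexin partner. ANXA2, a calcium-dependent membrane-binding protein, read 8.52 on GFP CSS and 10.28 on cicb CSS, and 7.87 on GFP FCS and 9.63 on cicb FCS, so that its change was 1.76 in CSS and 1.75 in FCS. Its 3 probe sets gave 1.76 to 1.77 in CSS. S100A10, the S100 protein that forms a tetramer with annexin A2, read 8.43 and 10.02 in CSS (3.01-fold higher) and 7.44 and 9.11 in FCS (3.19-fold higher). ANXA1, an annexin with anti-inflammatory actions, had the largest CSS change of the 16, from 5.44 to 7.67 (2.23), with 5.48 and 7.21 in FCS (1.72). For these 3 genes the shRNA arrays lay above both control arrays. ANXA2P2, a processed pseudogene of ANXA2, was 1.63 higher in CSS, but it can share probes with ANXA2 and is uncertain. Of the 28 annexin and S100 genes listed, 11 were bright, of which 7 were higher and 4 lower in CSS with a median of 0.26 (-0.09 on the values as deposited). ANXA1, ANXA2 and S100A10 were the only 3 of them at least 2-fold higher, 3 of 11 beside 5.14% of all bright genes, and the only 3 called in the test over both sera, beside 1.6% of all genes tested (limma adjusted p = 0.000185 for ANXA1). ANXA1 and S100P read 5.44 and 6.00 on GFP CSS, under the minimum of 100, and were bright through cicb CSS. With that minimum set on GFP CSS, 8 of the 11 remained, 4 higher and 4 lower in CSS, with a median of 0.07. S100P was 0.75 higher in CSS and -0.39 in FCS, while ANXA4, ANXA5, ANXA7, ANXA11 and S100A11 differed in CSS by -0.30 to 0.26.

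The other genes higher in both sera encode proteins of several kinds. PRSS23, a secreted serine protease, read 6.34 on GFP CSS and 8.16 on cicb CSS (1.81) and 6.16 and 8.54 in FCS (2.38). TUBA1A, an alpha-tubulin, read 6.31 and 8.14 in CSS (1.83) and 4.62 and 7.03 in FCS (2.41). Both were higher on each shRNA array than on either control array. Of the 15 bright tubulin and tubulin-folding genes TUBA1A was the only one 2-fold higher, and TBCE, a tubulin-folding cofactor, the only one 2-fold lower, at -1.39 in CSS and -0.79 in FCS, 1 of 15 each beside 5.14% and 4.09% of all bright genes. TUBA1A was under 100 on GFP CSS and was bright through cicb CSS. The 13 genes of this list at 100 or above on GFP CSS were 7 higher and 6 lower in CSS, with a median of 0.02. Neighbouring tubulins gave other values, 0.02 for TUBA1B and 0.20 for TUBA1C in CSS. TSPAN5, a tetraspanin, differed by 1.38 in CSS and 1.66 in FCS, and SFN (14-3-3σ), a p53-induced inhibitor of the entry into mitosis, by 1.03 and 1.81. SEMA3C, a secreted semaphorin, ROR1, a Wnt5a receptor, and LEF1, a transcription factor of the Wnt pathway, were also in the group, at 1.42, 1.14 and 1.38 in CSS, but other probe sets of SEMA3C and ROR1 differed by 0 in CSS and by 1.08 and 0.67 in FCS. For LEF1 the others gave -0.19 and 0.00 in CSS and 1.13 and -0.01 in FCS.

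**Figure D2:**
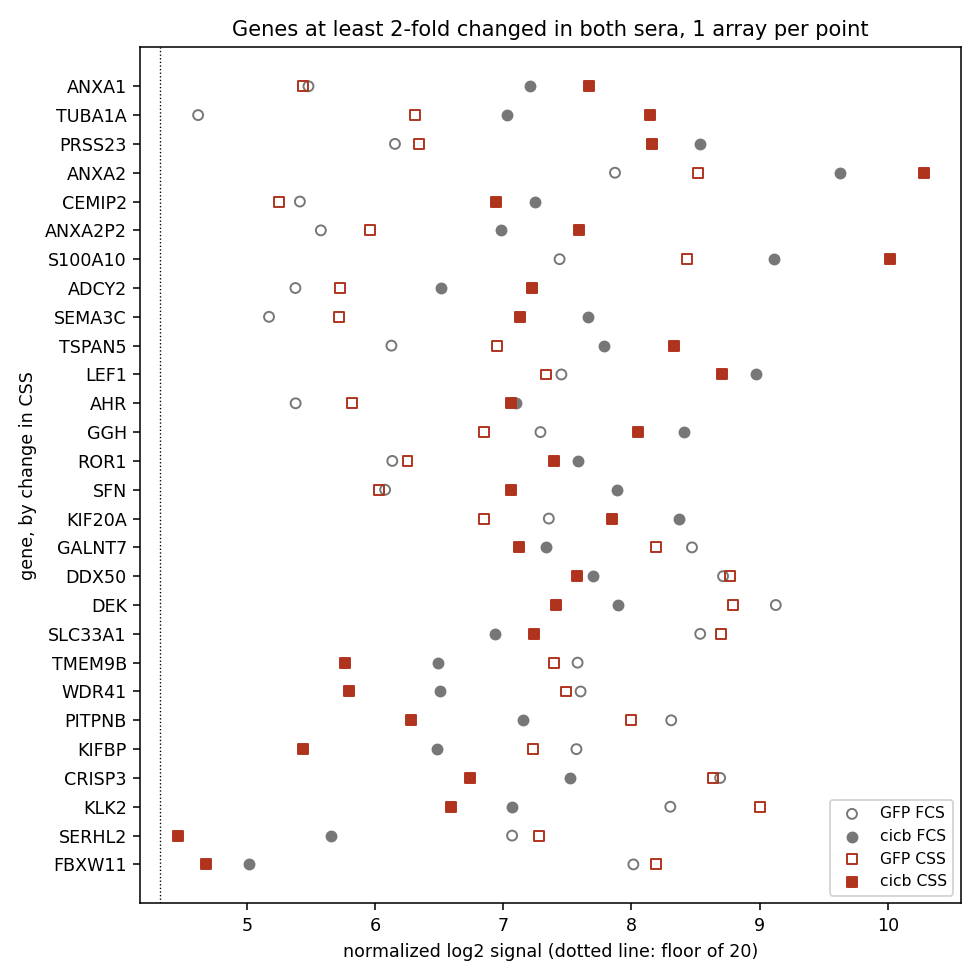
Normalized log2 signal on the 4 arrays of the 28 genes at least 2-fold different in the same direction in both sera, ordered by the change in CSS. Open symbols are the GFP arrays and filled symbols the cicb arrays, circles FCS and squares CSS, 1 array per point. The signal of ANXA2 goes from 8.52 to 10.28 and that of FBXW11 from 8.19 to 4.68 in CSS.

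AHR, the aryl hydrocarbon receptor, is a ligand-activated transcription factor that induces CYP1A1, CYP1B1 and its own repressor. Its signal was 5.82 on GFP CSS and 7.06 on cicb CSS, a 2.37-fold higher level (1.24, local spread 0.65), and 5.38 and 7.10 in FCS, 3.30-fold. The shRNA arrays nearly coincided and lay above both controls. Over both sera the effect was 1.48 ± 0.444 (SE, limma, adjusted p = 0.0265), from 1 probe set. The classical target CYP1A1 was dim and read 5.25 and 5.98 in CSS (0.73, local spread 0.91) and 5.51 and 6.83 in FCS (1.32), with an adjusted p of 0.415. CYP1B1 was at the floor of 4.32 on 3 arrays and read 4.46 on cicb CSS in 1 probe set, while the other read 4.42 on GFP CSS and was at the floor on the other 3 arrays. TIPARP, another target, differed by 0.10 in CSS, NQO1, shared with NRF2, by -0.16, and ARNT, the dimerization partner, by 0.12. Of the 5 bright genes of the pathway AHR was the only one past 2-fold, 1 of 5 beside 5.14% of all bright genes. AHR was under 100 on GFP CSS and was bright through cicb CSS. The 4 pathway genes at 100 or above on GFP CSS were 2 higher and 2 lower in CSS, with a median of 0.09. In the test over both sera AHR and HSP90AB1 were called higher, 2 of 10 beside 1.6% of all genes tested. HSP90AB1 differed by 0.23 in CSS and 0.54 in FCS.

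Androgen-induced genes were lower in the knockdown under androgen ablation. Of 34 listed, 17 were bright, of which 14 were lower in CSS, 6 of them at least 2-fold and none 2-fold higher, beside 4.09% lower among all bright genes. The median was -0.54 in CSS and -0.44 in FCS, against -0.02 and -0.01 for all bright genes. KLK2, a kallikrein protease, read 9.0 on GFP CSS and 6.59 on cicb CSS, 5.32-fold lower, and 8.30 and 7.07 in FCS, 2.35-fold lower. Its other probe sets gave -1.37 and -0.63 in CSS. KLK3, which encodes prostate-specific antigen, read 9.74 and 8.37 in CSS (-1.37) and 9.0 and 8.02 in FCS (-0.98), with -1.99 and -0.95 in its other probe set. Both kallikreins were lower on each shRNA array than on either control array, although neither was lower on GFP CSS than on GFP FCS. HPGD, which degrades prostaglandins, was -1.87 in CSS and -0.54 in FCS. SGK1, a serum- and steroid-regulated kinase, was -1.67 and -0.32, and ADAMTS1, a secreted metalloprotease, and MAF, a transcription factor, were -1.38 and -1.36 in CSS and -0.09 and -0.19 in FCS. In these 4 the difference between the arrays was larger in CSS than in FCS, which was not tested. KLK2, KLK3, SGK1 and ELOVL5 were called lower in the test over both sera, 4 of 17 beside 2.34% of all 8858 genes tested. FKBP5, a steroid-induced co-chaperone, and SPDEF, an epithelial transcription factor, were 0.12 and 0.10 in CSS and -0.80 and -0.83 in FCS. CRISP3, a secreted protein of the prostate that was not on the list, was -1.90 in CSS and -1.17 in FCS.

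Transcriptional coregulators and luminal markers differed less. Of 10 bright coregulators none was 2-fold different, with a median of -0.09. HOXB13, a homeobox factor of the prostate lineage, was 0.63 higher in CSS, at 8.90 on cicb CSS. Of the 11 bright luminal epithelial markers none was 2-fold different: KRT18 read 11.60 and 11.54 and KRT8 9.91 and 9.80 on GFP CSS and cicb CSS, so that markers of the labelled luminal cell type were measured on both arrays. Of the 11, 4 were higher and 7 lower in CSS, with a median of -0.11, and 2 were higher and 9 lower in FCS, with a median of -0.28. KRT19 was -0.36 in CSS and -0.65 in FCS. It was the only 1 of the 11 called in the test over both sera, as lower, beside 2.34% of all genes tested. The summed linear signal of the luminal list was 12373 on GFP CSS and 11710 on cicb CSS. Of the basal epithelial markers ITGA6 and EGFR were bright, at -0.70 and -0.34 in CSS. No gene of the fibroblast, leukocyte, endothelial and neuroendocrine lists was bright. A signal of 20 was reached by 7 of 11, 7 of 13, 3 of 7 and 4 of 15 of their genes, and the summed signals were higher on cicb CSS than on all other arrays: 221 against 153 to 159 for fibroblasts, 266 against 154 to 159 for leukocytes, 80.7 against 61.9 to 64.0 for endothelium and 144 against 92.5 to 96.3 for neuroendocrine cells. The part of these signals in the results was not tested.

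Bright genes of mitosis were mostly higher in both sera, few of them by 2-fold. Of 56 listed, 37 were bright, of which 31 were higher in CSS and 36 in FCS, with medians of 0.59 and 0.67. The dim members differed in CSS: of 17, 6 were higher and 11 lower there, with a median of -0.46, while all 17 were higher in FCS. Over all 54 members with a signal of 20, 37 were higher in CSS, with a median of 0.36. CCNF, CDC25C, NEK2 and NCAPD2 were bright only through cicb CSS, and without them 27 of 33 were higher. With the minimum of 100 set on the FCS arrays, 35 of 47 were higher, with a median of 0.44. On the values as deposited the CSS median was 0.09, against -0.47 for all bright genes. The test over both sera called 20 of the 37 higher and none lower, beside 1.6% of all genes tested. PLK1, the kinase that drives mitotic entry and spindle assembly and also phosphorylates β-TrCP substrates, read 7.09 on GFP CSS and 8.18 on cicb CSS (1.09, local spread 0.42) and 7.51 and 8.34 in FCS. DLGAP5, a spindle protein, read 7.11 and 8.18 in CSS and 7.55 and 8.43 in FCS. Both were higher on each shRNA array than on either control. The third gene past 2-fold was KIF20A, a kinesin of cytokinesis, at 6.85 and 7.85 in CSS and 7.36 and 8.37 in FCS. CDK1, the kinase of mitotic entry, and its cyclins CCNB1 and CCNB2 differed by 0.99, 0.72 and 0.90 in CSS and by 0.45, 0.93 and 0.66 in FCS, and the effect over both sera for CCNB1 was 0.82 ± 0.108 (SE, limma, adjusted p = 1.56e-11). PTTG1 (securin), UBE2C and CDC20, which act at the anaphase-promoting complex, were 0.71, 0.69 and 0.65 higher in CSS. The 6 lower members were CEP55, BUB1B, RACGAP1, CKAP2, KIF11 and HMMR, from -0.69 to just under 0, of which CEP55 read 6.68 and 5.99 in CSS but 7.02 and 7.70 in FCS. In a culture measured in bulk, more cells in mitosis and more of these RNAs per cell cannot be told apart.

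**Figure D3:**
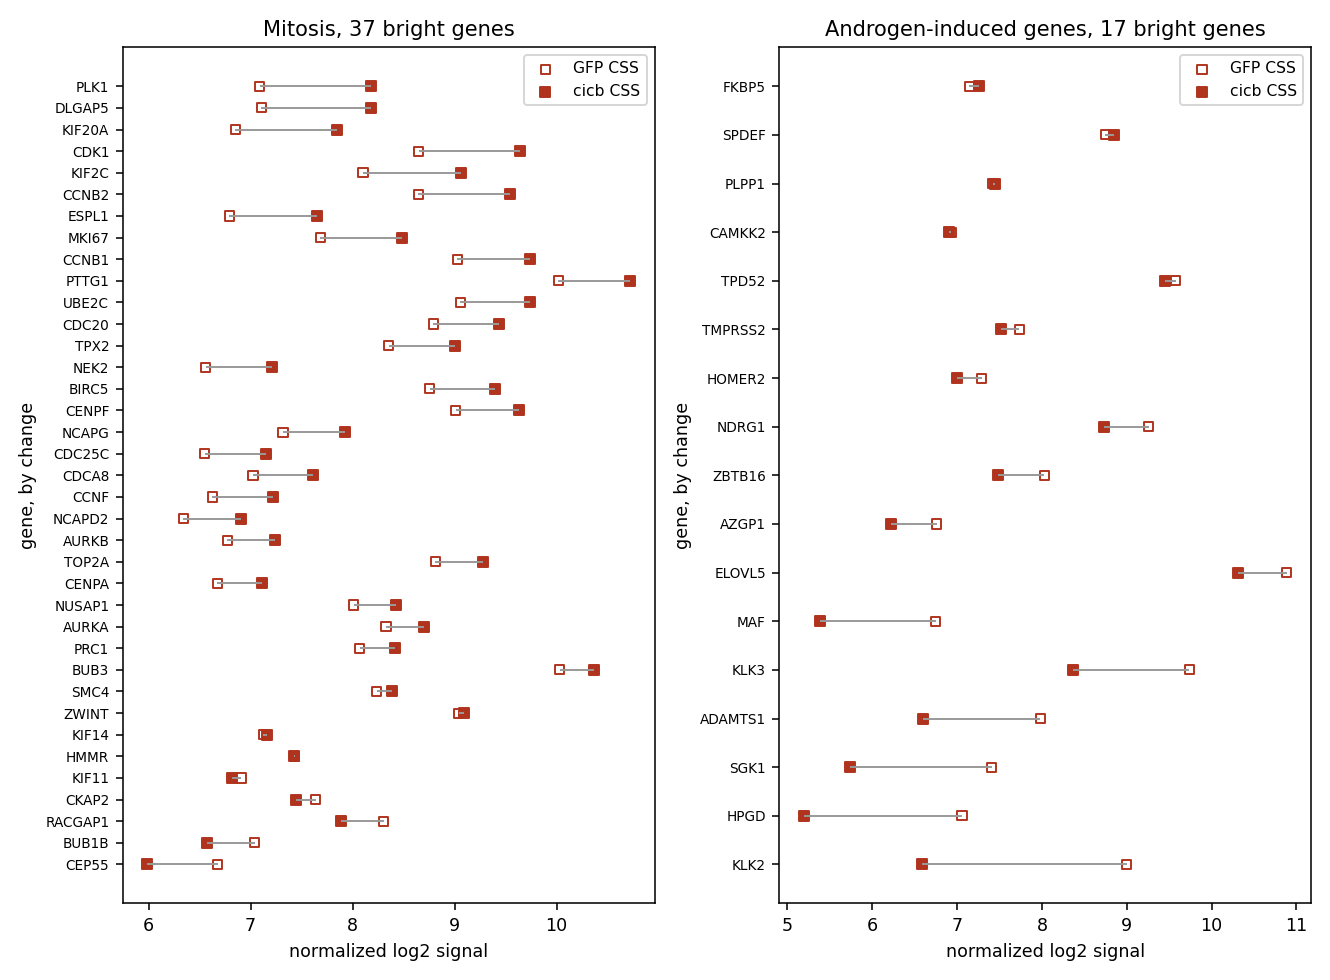
Normalized log2 signal on GFP CSS (open) and cicb CSS (filled) of the 37 bright mitosis genes and the 17 bright androgen-induced genes, 1 array per point, ordered by change. Of the mitosis genes 31 lie to the right of their control, with PLK1 at 8.18 against 7.09, and of the androgen-induced genes 14 lie to the left, with KLK2 at 6.59 against 9.0.

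Many promoters of mitotic genes hold a cell cycle genes homology region (CHR), the element TTTGAA, through which the DREAM and MYB-MuvB complexes repress and activate them in turn. RefSeq promoter windows of 300 bases (GRCh38.p14, 250 before to 50 after the start site) were found for 31 of the 37 bright mitosis genes, as 39 windows. Of these, 27 (69.2%) held TTTGAA on either strand, against 15.2% of all 35116 windows and 9.74% of the 4855 windows of bright genes. In the 50 bases before the start site it began in 41.0% of the mitosis windows, 2.56% of all and 1.77% of those of bright genes. These shares follow from the list, and the arrays enter them only through which genes were bright. Genes at least 2-fold higher in CSS held it in 7.44% of their windows. The 120 bases before the start site are shown for the 4 mitosis genes with the largest CSS changes among those with 1 window that holds the element there, to let its place be seen. They are 5′ to 3′ on the strand of the gene, at chr16:23678769-23678888 (plus) for PLK1, chr14:55191586-55191705 (minus) for DLGAP5, chr15:59105026-59105145 (plus) for CCNB2 and chr12:53268179-53268298 (plus) for ESPL1 (separase), and capitals mark TTTGAA or its reverse complement.
PLK1: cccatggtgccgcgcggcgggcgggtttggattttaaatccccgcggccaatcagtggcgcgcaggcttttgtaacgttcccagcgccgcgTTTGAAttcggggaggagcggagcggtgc
DLGAP5: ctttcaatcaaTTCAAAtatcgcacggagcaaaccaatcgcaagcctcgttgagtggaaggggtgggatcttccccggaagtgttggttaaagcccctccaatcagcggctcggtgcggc
CCNB2: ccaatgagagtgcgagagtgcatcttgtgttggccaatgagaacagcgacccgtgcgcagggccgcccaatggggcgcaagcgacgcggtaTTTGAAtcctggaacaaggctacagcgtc
ESPL1: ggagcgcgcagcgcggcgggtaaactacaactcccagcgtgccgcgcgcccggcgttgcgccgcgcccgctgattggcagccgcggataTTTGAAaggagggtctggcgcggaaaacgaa
The element begins 29 bases before the start site in both PLK1 and CCNB2 and 31 before it in ESPL1. In the stretch shown for DLGAP5 it begins 109 bases before the start site, on the other strand, and the window of this gene holds 2 more on its own strand, beginning 138 bases before the start site and at base 4 after it. The CSS changes of the 4 genes were 1.09, 1.08, 0.90 and 0.86. KIF20A and CCNB1, 1.00 and 0.72 higher, hold no TTTGAA in their windows. A match is a description of these letters and not of a bound factor.

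Bright genes of DNA replication were divided in direction in CSS. Of 24 bright S phase genes 10 were higher and 14 lower in CSS, where 51.8% of all bright genes were negative. Their median was -0.05 (-0.59 on the values as deposited), and 17 were higher in FCS, with a median of 0.10. Over all 48 members with a signal of 20, 17 were higher and 31 lower in CSS, with a median of -0.19, and 29 were higher in FCS. Of the 24 dim members 7 were higher and 17 lower in CSS, with RFC5 at -1.54, GINS2 at -1.54 and DTL at -1.30. TYMS, thymidylate synthase, read 7.57 on GFP CSS and 6.29 on cicb CSS (-1.27), the only bright member past 2-fold. In FCS it read 8.31 and 8.22, and its second probe set was 0.70 higher in CSS. DUT, which removes dUTP, was -0.88 in CSS and -0.31 in FCS. These were the only 2 bright members called in the test over both sera, both lower, 2 of 24 beside 2.34% of all genes tested. RFC3, a subunit of the clamp loader, was -0.83 in CSS and 0.68 in FCS, and the helicase subunits MCM2, MCM3, MCM4, MCM6 and MCM7 gave 0.10, -0.24, 0.35, -0.76 and 0.14 in CSS.

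The mRNAs of known β-TrCP substrates had no common direction in CSS. Of 36 listed 16 were bright, 7 higher and 9 lower in CSS, with a median of -0.07. CTNNB1 (β-catenin) read 9.58 and 9.72 in CSS (0.14, local spread 0.26) and differed by 0.18 in FCS, and NFKBIA (IκBα) read 9.49 and 9.13 (-0.36) and differed by -0.35. WEE1, which holds CDK1 inactive, was 0.48 higher in CSS and 0.73 in FCS, and CDC25B, which activates it, 0.82 and 0.40. WEE1 and CDC25B were the only 2 bright substrates called in the test over both sera, both higher, 2 of 16 beside 1.6% of all genes tested. REST, a repressor of neuronal genes, was 1.99 higher in CSS and 0.00 in FCS, but its 2 probe sets opposed each other in CSS (-1.0 and 1.99). It read 5.05 on GFP CSS and was bright through cicb CSS. EPOR, the erythropoietin receptor, was 1.12 in CSS and -0.27 in FCS. Of genes that these substrates regulate, few were bright. Of 6 bright Wnt outputs 4 were higher in CSS and all 6 in FCS: LEF1 differed by 1.38 in CSS, EPHB3 by 0.90, CCND1 by 0.42, MYC by 0.08, SOX9 by -0.07 and JAG1 by -0.44. Over the 11 outputs with a signal of 20, 9 were higher in CSS, with a median of 0.90. The 5 dim ones were all higher in CSS, with a median of 1.10, but had a median of 0 in FCS. Of the 5 outputs at 100 or above on GFP CSS, 3 were higher in CSS, with a median of 0.08. VCAN, a matrix proteoglycan that was dim, read 4.53 and 6.01 in CSS (1.48, local spread 1.12) and 4.44 and 6.63 in FCS (2.19), and LEF1 and VCAN were called higher over both sera, 2 of the outputs tested beside 1.6% of all genes. The other VCAN probe sets gave 1.31, 0.33 and 0 in CSS and 1.33, 1.95 and 1.07 in FCS. Among 4 NF-κB outputs IER3 was -0.41 and BIRC2 -0.18.

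Genes of sterol and fatty acid synthesis had members called in both directions. The 23 bright genes had a median of 0.04 in CSS (-0.30 on the values as deposited) and 0.40 in FCS. FASN, fatty acid synthase, read 10.51 on GFP CSS and 9.78 on cicb CSS (-0.73, local spread 0.20), and ACACA, which makes its substrate malonyl-CoA, 9.34 and 8.40 (-0.94). In FCS they were -0.29 and -0.33. LSS, lanosterol synthase, was -1.16 in CSS and -0.01 in FCS, and MVK, mevalonate kinase, was 1.06 and 0.63. The enzymes HMGCS1, MSMO1 and IDI1 of the sterol pathway and its regulator INSIG1 were 0.51, 0.35, 0.28 and 0.50 higher in CSS and were called higher over both sera, and FASN, ACACA, LSS and TM7SF2 were called lower, which is 4 of 23 in each direction beside 1.6% higher and 2.34% lower of all genes tested.

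Stress and housekeeping lists had CSS medians near 0 after quantile normalization, while on the values as deposited the median was -0.34 for ATF4 and endoplasmic reticulum stress genes, -0.38 for NRF2 targets and -0.15 for proteasome subunits. Of 19 bright ATF4 and endoplasmic reticulum stress genes none was 2-fold different in CSS, where ATF3, DDIT4 and CHAC1 gave -0.40, -0.07 and 0.21. In FCS these 3 were 1.32, 1.40 and 1.27 higher. On GFP CSS they already read 8.63, 8.72 and 6.66, against 7.44, 7.58 and 5.6 on GFP FCS. Of 11 bright NRF2 targets TXNRD1, thioredoxin reductase, was -0.94 and NQO1 -0.16, with a median of -0.01. The 28 proteasome subunits had a median of 0.08 and the 42 ribosomal proteins of 0.00, between -0.19 and 0.21, and no member of either list was 2-fold different.

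Apart from FBXW11, KLK2 and CRISP3, the lower genes in both sera had varied roles. SERHL2, a serine hydrolase-like protein, read 7.28 and 4.46 in CSS (-2.82) and 7.07 and 5.65 in FCS (-1.42). SLC33A1, the acetyl-CoA transporter of the endoplasmic reticulum, read 8.70 and 7.24 in CSS and 8.54 and 6.94 in FCS, with -0.56 in its other probe set in CSS. DEK, a chromatin protein, read 8.79 and 7.41 in CSS and 9.13 and 7.90 in FCS. In each of these the shRNA arrays lay below both control arrays. KIFBP, a kinesin-binding protein, PITPNB, a phosphatidylinositol transfer protein, WDR41, TMEM9B, DDX50, an RNA helicase, and GALNT7, which starts O-glycans, gave -1.80 to -1.07 in CSS and -1.16 to -1.01 in FCS. Other large decreases were mostly on the CSS pair: ZNF652, a zinc finger repressor, was -2.75 in CSS and -0.24 in FCS, PEG3, an imprinted gene, -2.53 and -0.66, ANGEL2 -2.47 and -0.47, and DYNLT3, a dynein light chain, -2.26 and -0.79. Of the 155 lower genes, 59 were under 100 on cicb CSS and at 100 or above on the other 3 arrays.

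The largest increases had another pattern. PLCD1, a phospholipase C, read 8.05 on cicb CSS and 5.27 to 5.28 on all other arrays, a change of 2.77 in CSS and -0.01 in FCS. ASGR2, a receptor subunit of the liver, read 6.95 there and 4.32 to 4.33 elsewhere, and SOD3, the extracellular superoxide dismutase, 7.38 against 5.14 to 5.17. ARTN, a neurotrophic ligand, ADAM11, UCP2, a mitochondrial carrier, and OLFM1 gave 2.59, 2.46, 2.43 and 2.24 in CSS and -0.08 to 0.17 in FCS. These genes were high on 1 array of 4. The same held for most of the group: 151 of the 195 higher genes were under 100 on the other 3 arrays, with a median change of 1.46 in CSS and -0.02 in FCS, and 64 of the 151 were positive in FCS. The other 44 had a median FCS change of 0.60, and 34 of them were positive. The split itself used the FCS arrays, so that a gene raised to 100 on cicb FCS had to be among the 44. The FCS values of the 151 and the 44 are therefore in part fixed by the split. The cicb CSS array was also the one that stood apart in spread and in the 28S probe set, and whether these increases belong to the combined condition or to the array cannot be told apart with 1 array.

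**Figure D4:**
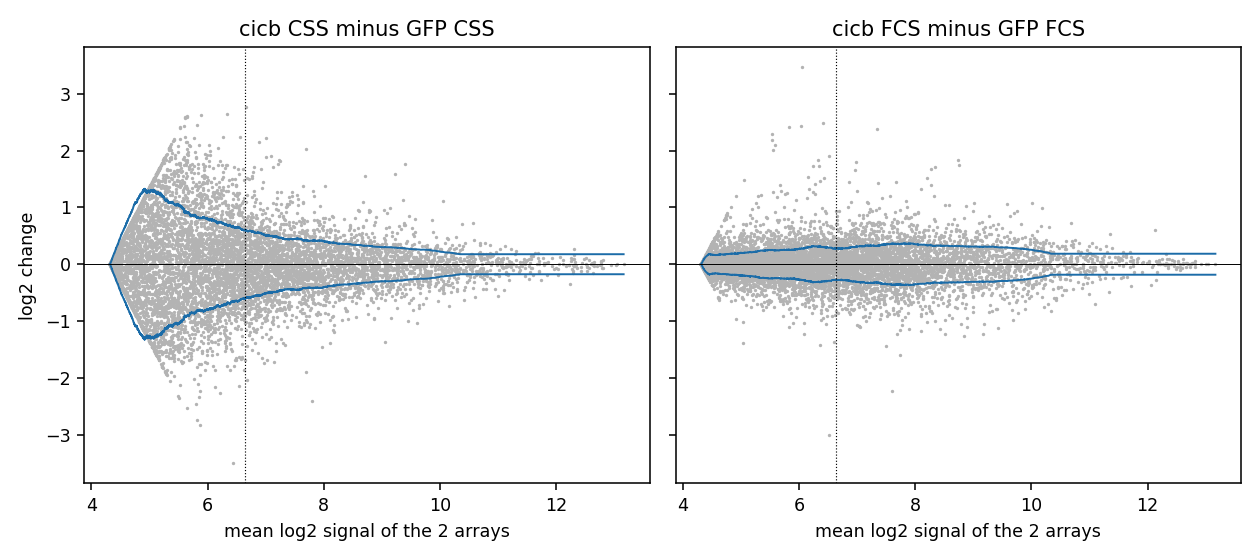
Log2 change with β-TrCP shRNA of 9193 genes against the mean normalized log2 signal of the arrays compared, in CSS (left) and FCS (right). Blue lines are the local spread above and below 0 and the dotted line is a signal of 100. Dim genes scatter more in CSS, while the robust SD of genes with a mean signal of at least 1600 was 0.128 in CSS and 0.113 in FCS.

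The spread of the CSS changes depended on signal. For genes with a mean signal of 100 to 200 the robust SD was 0.488 in CSS and 0.307 in FCS, and 48 of 1354 were 2-fold higher and 45 lower. At 400 to 1600 it was 0.265 and 0.301, and 6 of 856 were higher and 3 lower. ANXA2, S100A10 and KLK3 lie in that range. Over both sera the additive model called 142 genes higher, 1.6% of 8858, and 207 lower, 2.34%, of which 35 and 54 were also at least 2-fold in CSS. Its variances came from the trend on signal, with 1 residual degree of freedom. Without that trend limma called 0 genes in either direction, with 382 genes at an unadjusted p under 0.05, against 1113 with the trend.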

How the data were processed

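RNA of LAPC4 cells was hybridized to 4 Affymetrix U133 arrays, 1 for each serum with each vector. The deposited table holds log2 values of 22277 probe sets. Per the labels the authors used MAS5, and their methods add a signal minimum of 20 together with a present call, a log2 transformation, and then quantile normalization. Present calls are not in the columns used here, which differ in distribution and include every probe set, so the minimum and the normalization were applied anew. Whether the values are unchanged MAS5 signals was not tested. The number of arrays limits the precision.

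The 62 Affymetrix controls were removed. Of the rest, 15643 probe sets reached a signal of 20 on an array, and these were quantile normalized over the 4 arrays and raised to a floor of 20 (4.32). Only probe sets annotated with 1 gene were used (19070, against 1043 with several genes and 2164 with none). Symbols came from a RefSeq gene table through gene identifiers. Each of 9193 genes was represented by its brightest probe set. Where 1 of the arrays compared is at the floor, the change is only a bound. Local spread is the median absolute deviation of the log2 changes of the 1000 nearest probe sets, times 1.48.

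The main effect of the shRNA was fitted by limma (version 3.58.1, R version 4.3.3) with serum and shRNA additive, a variance trend, 1 residual degree of freedom and a Benjamini-Hochberg adjusted p threshold of 0.05. An interaction would count as error, and the prior degrees of freedom were infinite. Python 3.11.15 with numpy 2.4.6 and pandas 2.3.3 served for the other steps. Normalization, the changes, the local spread, the probe set choice and the limma fit were tested on simulated data. The groups come from the sample labels.

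Genes named were taken from the 12 largest increases and decreases in CSS and the 10 of each with the largest smaller change in both sera (all with probe sets of 1 direction). Up to 4 genes of each of 32 lists, the targets and the genes the study labels were added. Not every gene of these groups is named in the text. The further genes and list members named were chosen after their values were seen. The members and lists were chosen with earlier results of these data known. Alternatives were deposited values, a common median, normalization within each serum, signal-dependent centring, no filter, no floor or a floor of 100, the mean over probe sets, other signal minimums, a 3-fold threshold and limma without the trend. A minimum on the FCS arrays or on both CSS arrays and a rule on all probe sets were added after seeing the data.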

Additional observations from a re-analysis of the deposited data

Results flagged for a closer look

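For 13 of the named or listed genes the knockdown array differed from its control by more than the local spread in CSS and in the opposite direction by more than the local spread in FCS. The difference between the sera was not tested for any of them, since each change rests on 1 array a side. SDF2L1, a chaperone cofactor of the endoplasmic reticulum, was 0.61 in CSS and -1.45 in FCS. Its control was lower in CSS (6.94) than in FCS (8.22). STC2, a glycoprotein induced by endoplasmic reticulum stress, was -0.61 in CSS and 0.70 in FCS, with controls of 8.63 and 7.04, and ATF3, a stress-induced transcription factor, -0.40 and 1.32, with controls of 8.63 and 7.44. S100P was 0.75 in CSS and -0.39 in FCS, and CREBBP, a histone acetyltransferase and coregulator, -0.62 and 0.32. The other probe set of CREBBP opposed this in CSS, at 1.09, and gave 0.05 in FCS. FDPS, farnesyl diphosphate synthase, was -0.41 and 0.23, RFC3, of the clamp loader, -0.83 and 0.68, and CEP55, of cytokinesis, -0.69 and 0.67. The other 5 were under a signal of 100 on both CSS arrays. MAD2L1, of the spindle checkpoint, was -1.25 in CSS and 0.40 in FCS, KIF4A and KIF15, mitotic kinesins, -1.09 and 0.53, and -1.02 and 0.39, YAP1, a coactivator, -1.27 and 0.46, and AMOTL2, which binds it, -1.01 and 0.29.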

How the results depend on the processing

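Counts and medians depended on the scale of the arrays and on which genes counted as bright. On the values as deposited 38 bright genes were at least 2-fold higher and 603 lower in CSS, and 7 were higher in both sera. The medians in CSS were then 0.094 for mitosis, -0.59 for S phase, -0.41 for the SCF core and -0.51 for β-TrCP substrates. For the bright genes among the 17 that the study labels the median was -0.080, against 0.47 after quantile normalization, and so reversed. That list mixes both directions, with 9 of its 15 bright genes higher and 6 lower in CSS after quantile normalization. With a common median the counts in CSS were 99 and 254. With a floor of 100 they were 48 and 38, with 7 higher in both sera and an androgen-induced median of -0.11. The mean over probe sets gave 123 genes higher, a median of 1.24 for the labelled genes and -0.092 for CCN1, a YAP target at 1.31 by its brightest probe set. Without a signal minimum 677 were higher and 589 lower. With a minimum of 200 the counts were 47 and 38, 9 were higher in both sera, and the labelled genes had a median of 1.28. At 3-fold the counts were 65 and 44 in CSS and 6 and 1 in both sera. Of the alternatives added after seeing the data, the minimum on the FCS arrays gave 35 higher (and 126 lower), that on both CSS arrays 29 and 22, and the rule on all of at least 2 probe sets 16 and 15. The test over both sera called 11 higher and 32 lower without any normalization here, 68 and 94 when only medians were equalized, and 0 and 0 without the trend. The cause of these shifts was not tested. All 195 and 155 genes were called again with no filter before normalization and with no floor. With 1 array per condition the samples carry no replicate numbers to pair, the additive model already compares the shRNA within each serum, and no array could be left out of the CSS comparison.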

Other observations

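Of the bright genes 1701 had at least 2 probe sets, and in 31 of them all probe sets were at least 2-fold different in CSS in the same direction. The 16 higher ones included ANXA2 and SFN, STK11, the kinase LKB1, CRTC1, a coactivator that kinases downstream of LKB1 keep in the cytoplasm, GSTM1, a glutathione transferase, BCAM, a laminin receptor, and AGPAT2, an enzyme of phospholipid synthesis. CRTC1 was 2.15 in CSS and -0.20 in FCS, and GSTM1 2.21 and -0.14. The 15 lower ones included KLK3 and SERHL2, PEG3, MED13, a subunit of the Mediator kinase module, INTS6, of the Integrator complex, OSBPL8, a lipid transfer protein, STK24, a kinase, and TFAP2A, a transcription factor.

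Smaller lists had few bright genes. Of 5 G1 regulators CDKN2A (p16) was 1.70 and E2F4 1.76 higher in CSS, and in FCS they were 0.27 and -0.06. These were the 2 of 5 past 2-fold, beside 5.14% of all bright genes. Both were bright only through cicb CSS, since they read 5.60 and 6.33 on GFP CSS. The 3 regulators at 100 or above on GFP CSS had a median of 0.04. E2F4 rests on 1 of 2 probe sets, since the other gave 0.19. Of 7 immediate early genes KLF10 was -1.74 in CSS and 0.10 in FCS, and DUSP1 -0.68 and 0.05. Of 8 BCL2 family genes none was 2-fold different, with BIK at 0.66, BID at 0.59 and BNIP3 at -0.49 in CSS. The dioxin-response core GCGTG, to which AHR and ARNT bind, was in 43.8% of the promoter windows of the genes 2-fold higher in CSS, in 48.7% of those of the genes 2-fold lower, in 36.5% of all windows and in 51.6% of those of bright genes (either strand), which is a description of letters only.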
